A study of Homo sapiens with 6 samples.

Results

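The transcripts of 10 genes of the NF-kB system, chosen by symbol, were followed across the libraries. These are the subunit genes RELA, RELB, NFKB1 and NFKB2, the feedback genes NFKBIA, NFKBIE, TNFAIP3 and BIRC3, and the adhesion targets ICAM1 and VCAM1. All 10 were found among the 60649 genes of the count table, and all 10 were among the 16039 genes expressed enough to test. The RNA came from 786-O, an immortal line grown from a human clear cell kidney cancer, in 3 groups of 2 libraries. A hairpin that targets the lncRNA LINC02068 was present in the groups shRNA1 and shRNA2, a different one in each (genotype LINC02068 knockdown), and the group shControl had the control hairpin (genotype WT). All groups share the 786-O background and none had any other treatment, per the labels. Cells were grown in RPMI-1640 with serum. The labels give no passage or time after the hairpins were introduced. They do not say that the replicates are separate cultures, and the spread behind each p-value may then be technical.

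NF-kB proteins are dimers of Rel family subunits that are held in the cytoplasm by inhibitor proteins until a kinase complex marks the inhibitor for destruction. The freed dimers then switch on genes for cytokines, survival proteins and adhesion molecules, and also genes for their own inhibitors, which end the response. In the canonical branch RELA pairs with the product of NFKB1, and in the non-canonical branch RELB pairs with the product of NFKB2. VCAM1 and ICAM1 are surface proteins that bind leukocyte integrins. VCAM1 is also made by kidney tubule cells and by renal carcinomas.

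On GRCh38 (GENCODE 29) the subunit genes lie at chr11:65653596-65663094 (RELA, minus strand), chr19:45001430-45038198 (RELB, plus), chr4:102501329-102617302 (NFKB1, plus) and chr10:102394110-102402529 (NFKB2, plus). The feedback genes lie at chr14:35401511-35404749 (NFKBIA, minus), chr6:44258166-44265788 (NFKBIE, minus), chr6:137867188-137883312 (TNFAIP3, plus) and chr11:102317450-102339403 (BIRC3, plus). The adhesion genes lie at chr19:10270835-10286615 (ICAM1, plus) and chr1:100719742-100739045 (VCAM1, plus). Values are per whole gene and do not resolve exons or transcript ends.

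In these libraries RELB, TNFAIP3 and VCAM1 fell the most of the 10 with either hairpin, BIRC3 and NFKBIE fell by less, and NFKB1, NFKB2 and ICAM1 fell slightly. NFKBIA alone rose, and RELA was not called.

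Promoters of several of these genes hold letters of the kind that NF-kB dimers are known to bind. The windows of 5 members are shown because they include, of the members with a window, the genes that fell the most (VCAM1, TNFAIP3), the gene that rose (NFKBIA), and both adhesion genes. Each window holds 250 bases before and 50 bases from the transcript start, from RefSeq on GRCh38.p14, written 5′ to 3′ on the gene's strand. Capitals mark matches on either strand to the 10-letter kappa B consensus or to the 9-letter motif GGAANTTCC, and the motifs can overlap. The 9-letter motif was added after these sequences had been read. The windows lie at chr1:100719492-100719791, plus strand (VCAM1), chr6:137867009-137867308, plus strand (TNFAIP3), chr11:102317234-102317533, plus strand (BIRC3), chr14:35404700-35404999, minus strand (NFKBIA) and chr19:10270870-10271169, plus strand (ICAM1).
VCAM1: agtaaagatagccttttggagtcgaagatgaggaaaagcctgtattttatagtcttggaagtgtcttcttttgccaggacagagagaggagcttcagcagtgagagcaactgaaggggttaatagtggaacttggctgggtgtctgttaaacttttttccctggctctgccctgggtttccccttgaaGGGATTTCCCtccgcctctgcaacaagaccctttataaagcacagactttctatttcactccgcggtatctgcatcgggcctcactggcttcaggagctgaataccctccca
TNFAIP3: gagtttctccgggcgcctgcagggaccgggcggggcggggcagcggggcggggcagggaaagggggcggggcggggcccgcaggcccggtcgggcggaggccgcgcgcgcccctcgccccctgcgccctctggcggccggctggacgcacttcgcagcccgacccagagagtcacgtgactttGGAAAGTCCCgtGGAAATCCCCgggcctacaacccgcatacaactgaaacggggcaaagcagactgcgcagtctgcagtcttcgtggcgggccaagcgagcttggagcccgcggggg
BIRC3: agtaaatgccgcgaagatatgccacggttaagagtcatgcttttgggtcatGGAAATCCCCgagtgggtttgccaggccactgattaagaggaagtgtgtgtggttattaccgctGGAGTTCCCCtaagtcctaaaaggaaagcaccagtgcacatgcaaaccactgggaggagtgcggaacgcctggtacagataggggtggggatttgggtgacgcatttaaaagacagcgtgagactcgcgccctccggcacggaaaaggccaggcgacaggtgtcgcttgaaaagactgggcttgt
NFKBIA: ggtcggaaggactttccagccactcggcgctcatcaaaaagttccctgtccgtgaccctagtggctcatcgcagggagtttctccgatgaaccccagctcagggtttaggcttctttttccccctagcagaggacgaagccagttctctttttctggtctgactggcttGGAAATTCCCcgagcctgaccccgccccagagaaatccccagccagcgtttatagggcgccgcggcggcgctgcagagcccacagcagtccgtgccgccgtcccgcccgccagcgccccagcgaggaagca
ICAM1: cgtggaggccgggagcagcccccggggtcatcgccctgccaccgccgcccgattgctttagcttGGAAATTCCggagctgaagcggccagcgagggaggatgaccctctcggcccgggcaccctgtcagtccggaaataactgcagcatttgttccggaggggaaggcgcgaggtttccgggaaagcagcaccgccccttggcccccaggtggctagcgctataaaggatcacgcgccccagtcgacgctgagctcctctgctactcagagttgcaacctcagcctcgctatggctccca

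VCAM1 has 1 consensus match, GGGATTTCCC, from 62 to 53 bases before the start. TNFAIP3 has 2, GGAAAGTCCC and GGAAATCCCC, the nearer of them 55 to 46 bases before the start. BIRC3 has 2, of which GGAAATCCCC has the same letters as the nearer match of TNFAIP3, at 199 to 190 bases. NFKBIA has 1, GGAAATTCCC, at 81 to 72 bases, and ICAM1 has none of the consensus but has the 9-letter motif as GGAAATTCC at 186 to 178 bases. RefSeq windows were at hand for 8 members (12 windows, since RELA and NFKB1 have 2 starts and NFKB2 has 3), and 6 of these 8 genes had a consensus match in at least 1 window. Over all RefSeq windows of that length, 11.27% of 35116 windows and 13.25% of 27305 genes had one. The members were picked as genes of the NF-kB system, some of them as its known targets. Their higher rate therefore lends no weight to these matches. They also have more windows per gene (12 for 8 genes, against 35116 for 27305). The 9-letter motif was in 0.97% of windows and 1.16% of genes, and in 3 of these 8 members (NFKB1, NFKBIA and ICAM1). It was added after the sequences shown had been read, so its rate in all windows lends no weight to those matches. Both RELA windows had neither motif. RELB and NFKBIE have no window there. A match is a run of letters, and no binding was measured. As the map of the matches shows, they were present both in genes that fell and in the gene that rose.

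**Figure D1:**
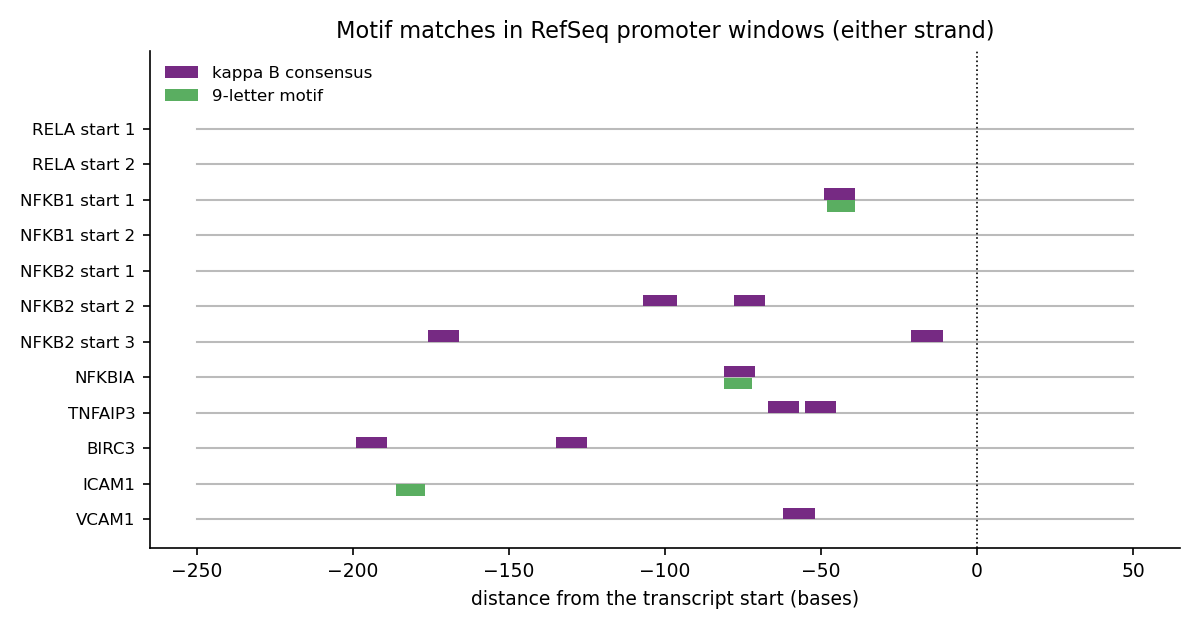
Position of motif matches on either strand in the promoter windows of 8 members, as distance in bases from the transcript start (dotted line). Purple blocks are the kappa B consensus and green blocks the 9-letter motif. Matches are seen in windows of NFKB1, NFKB2, NFKBIA, TNFAIP3, BIRC3 and VCAM1 for the consensus, in ICAM1 for the 9-letter motif only, and in neither window of RELA.

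Total counts ran from 15376448 to 37311846 per library, so that 1 CPM (a count scaled to library sizes that were adjusted by TMM, edgeR's scaling factors) stood for 14.9 to 35.99 counts. LINC02068, the targeted transcript, had 20 and 32 counts in the controls, against 9 and 2 for shRNA1 and 17 and 10 for shRNA2. The log2 change for the mean of both hairpins was −1.46 ± 0.59 (standard error, as for all changes below; edgeR quasi-likelihood test, Benjamini-Hochberg adjusted p = 0.0447). Neither hairpin alone was called for it (shRNA1 −1.70 ± 0.75, adjusted p = 0.069, and shRNA2 −1.21 ± 0.68, adjusted p = 0.148). The call for the mean was kept without shRNA1 replicate 1 (−2.26, adjusted p = 0.00914). It was lost without shRNA1 replicate 2 (0.124), without shRNA2 replicate 1 or 2 (0.0986 and 0.0972) and without shControl replicate 1 or 2 (0.160 and 0.219). For the mean of both hairpins 57.5% of all tested genes were called (adjusted p under 0.05), 28.9% lower and 28.6% higher. Of the 10 members 8 were called lower, 1 higher and 1 was not called, and their median log2 change was −0.44, against −0.03 for all tested genes. The 4 knockdown libraries did not overlap the controls for 9 members, 8 below and 1 above, and 67.0% of all tested genes were so separated (34.2% below, 32.7% above). With shRNA1 alone the members again had 8 lower and 1 higher, where 52.4% of all genes were called (25.6% lower, 26.8% higher). Without shRNA1 replicate 2 that count was 5 lower, as NFKB2, NFKBIE and ICAM1 lost their calls. With shRNA2 alone there were 8 lower and 1 higher, where 52.8% of all genes were called (26.1% lower, 26.7% higher), and 7 lower in DESeq2 and when either shRNA2 library or either control library was left out. The hairpin comparisons share their control libraries, so these are not independent counts. Over all genes 46.8% were called in the same direction with each hairpin and in their mean, and 9 of the 10 members were.

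**Figure D2:**
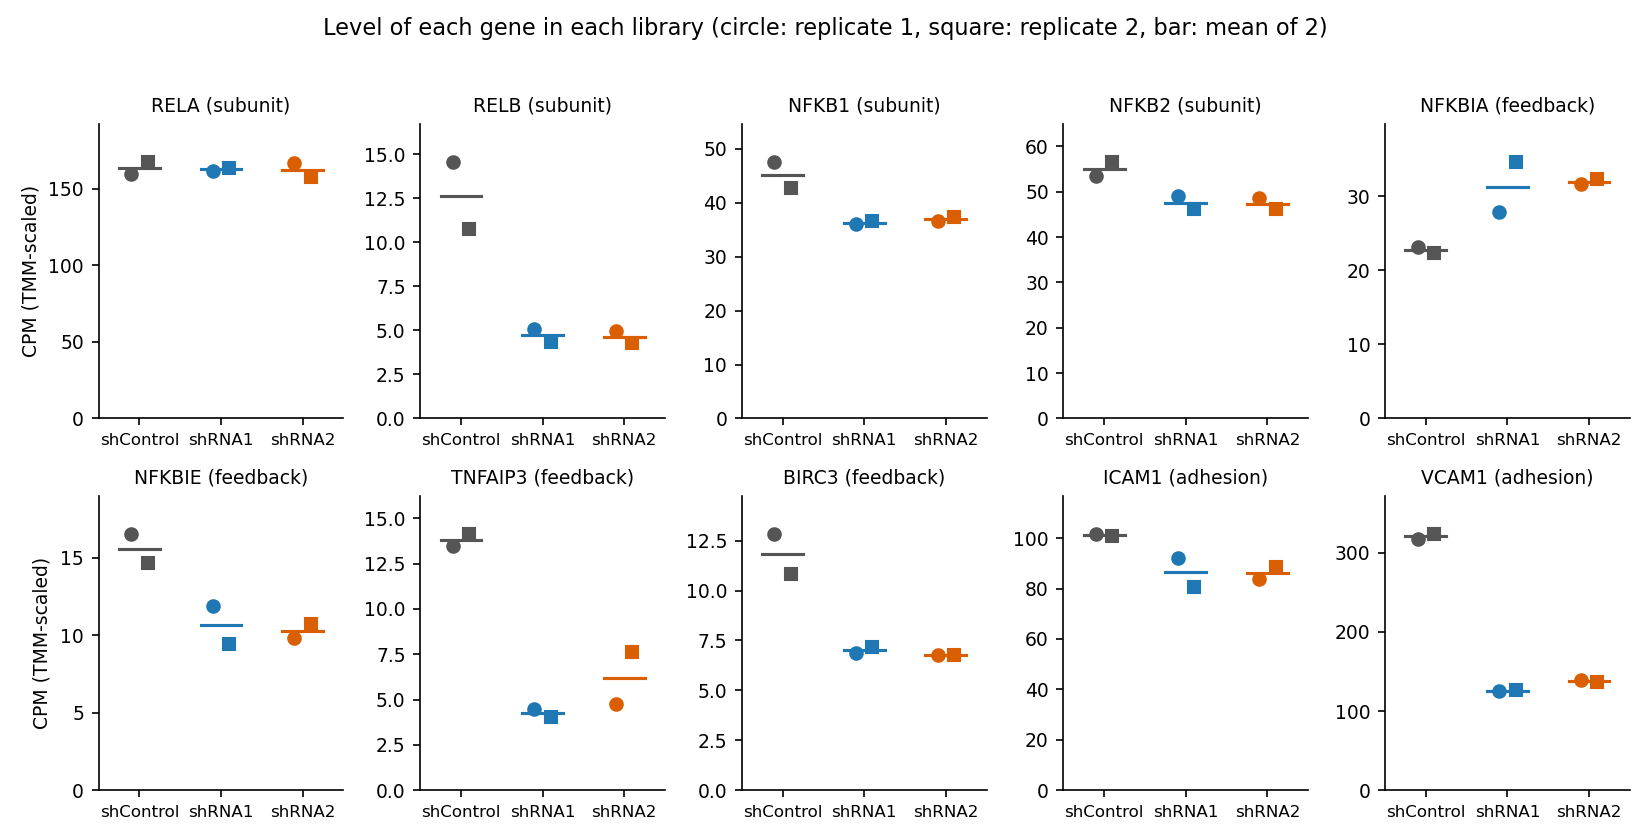
Level of each member in each of the 6 libraries, in CPM over TMM-scaled library sizes on axes from 0, with circles for replicate 1, squares for replicate 2 and a bar at the mean of the 2. For 9 members the 4 knockdown libraries lie entirely on one side of both control libraries, above them for NFKBIA and below them for the other 8, and for RELA they overlap.

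RELB, the subunit of the non-canonical branch, had the largest relative fall among the 4 subunit genes. Its level was 14.5 and 10.7 CPM in the controls, against 5.11 and 4.34 for shRNA1 and 4.97 and 4.26 for shRNA2. The control libraries differed from each other by more than any knockdown pair did, yet both stood above all 4 knockdown libraries. The log2 change was −1.43 ± 0.17 for the mean of both hairpins (2.69-fold lower, edgeR adjusted p = 2.72e-06), −1.42 ± 0.21 with shRNA1 and −1.44 ± 0.20 with shRNA2. Here as for all members, a lower level in bulk RNA cannot tell fewer cells with the transcript from less transcript per cell. Its log2 change was −1.64 to −1.21 over all alternative settings.

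NFKB2, which encodes the precursor of RELB's partner, did not follow RELB in size. It stood at 53.4 and 56.4 CPM in the controls, 49.0 and 46.2 with shRNA1, and 48.5 and 46.2 with shRNA2. The knockdown libraries were below the controls by a small margin (−0.21 ± 0.06, edgeR adjusted p = 0.00855). The call was lost without shControl replicate 2 (−0.18, adjusted p = 0.105). With shRNA1 alone (−0.21 ± 0.07) it was lost in DESeq2 (adjusted p = 0.0745), without shRNA1 replicate 2 (0.194) and without shControl replicate 2 (0.152). With shRNA2 alone (−0.21 ± 0.07) it was lost in DESeq2 (0.0648), without shRNA2 replicate 2 (0.102) and without shControl replicate 2 (0.139). Under total counts, with no scaling factors, it was −0.37. Counts per kilobase of NFKB2 relative to RELB were 2.49 and 3.56 in the control libraries and 6.49 to 7.35 in the knockdown libraries, a ratio within a library that no scaling factor enters.

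NFKB1, which encodes the precursor of RELA's usual partner, fell slightly as well. It was 47.5 and 42.8 CPM in the controls, 36.01 and 36.7 with shRNA1, and 36.6 and 37.4 with shRNA2. The knockdown libraries were close together, and all were below both controls (−0.30 ± 0.07, edgeR adjusted p = 0.00175). The change was −0.45 under total counts. With shRNA2 alone its call was lost without shControl replicate 1 (−0.22, adjusted p = 0.0699).

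RELA, the main transactivating subunit, was near the same level in every library. It was 159 and 167 CPM in the controls, 161 and 164 with shRNA1, and 166 and 158 with shRNA2. These ranges overlap, and the log2 change was −0.01 ± 0.04 (edgeR adjusted p = 0.882). Under total counts it was called lower (−0.16, adjusted p = 0.00192), where the median of all tested genes also moved, from −0.03 to −0.18. Relative to that median it was not lower under either scaling. The scaling therefore sets whether RELA is called, and the small changes of NFKB1, NFKB2 and ICAM1 vary in size with it.

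The feedback genes did not move together. NFKBIA encodes the classical inhibitor that holds RELA dimers in the cytoplasm. It was the one member that rose, from 23.1 and 22.4 CPM in the controls to 27.9 and 34.6 with shRNA1 and 31.6 and 32.3 with shRNA2. The shRNA1 libraries differed most from each other, and all 4 knockdown libraries were above both controls (0.48 ± 0.09, 1.39-fold higher, edgeR adjusted p = 3.94e-04). Its rise was 0.32 to 0.57 over all alternative settings and was called in each.

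NFKBIE, which encodes a related inhibitor, went the other way. It was 16.5 and 14.7 CPM in the controls, 11.9 and 9.41 with shRNA1, and 9.81 and 10.7 with shRNA2, and the groups did not overlap (−0.58 ± 0.13, 1.49-fold lower, edgeR adjusted p = 0.00107). With shRNA1 alone (−0.55 ± 0.15, adjusted p = 0.00623) the call was lost without shRNA1 replicate 2 (−0.37, adjusted p = 0.101) and without shControl replicate 1 (−0.47, adjusted p = 0.0645). Within a library, counts per kilobase of NFKBIA relative to NFKBIE were 1.52 and 1.66 in the controls and 2.55 to 3.99 with the hairpins.

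TNFAIP3 encodes a ubiquitin-editing enzyme that shuts off signalling upstream of the kinase complex. Its level was 13.5 and 14.1 CPM in the controls, 4.50 and 4.03 with shRNA1, and 4.78 and 7.61 with shRNA2. The library of shRNA2 replicate 2 was the highest of the 4 knockdown libraries and still well below both controls. The change was −1.44 ± 0.17 for the mean of both hairpins (2.70-fold lower, edgeR adjusted p = 3.75e-06), −1.70 ± 0.22 with shRNA1 and −1.17 ± 0.21 with shRNA2. NFKBIA relative to TNFAIP3, per kilobase, went from 3.66 and 3.38 to between 9.05 and 18.3, the widest separation between feedback genes computed here.

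BIRC3 encodes a ubiquitin ligase of the inhibitor-of-apoptosis family, which sits at TNF receptors and also limits the non-canonical branch. It was 12.8 and 10.8 CPM in the controls, 6.85 and 7.16 with shRNA1, and 6.75 and 6.79 with shRNA2. The 4 knockdown libraries lay within a narrow range below both controls (−0.78 ± 0.14, 1.71-fold lower, edgeR adjusted p = 2.12e-04). After a trend on exon length and GC content was removed the change was smaller (−0.50) and still called. BIRC3 has the lowest GC content of the members (34.8%), next to VCAM1 (35.0%).

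VCAM1 had one of the largest falls, and the change best resolved from the spread between replicates. It was 318 and 324 CPM in the controls, 125 and 127 with shRNA1, and 139 and 137 with shRNA2. Replicates were close in each group, and no knockdown library came near a control. The change was −1.28 ± 0.03 (2.43-fold lower, edgeR adjusted p = 6.9e-14), −1.35 ± 0.04 with shRNA1 and −1.22 ± 0.04 with shRNA2, and its range over all alternative settings was −1.44 to −1.02. VCAM1 shares no exonic base with another annotated gene.

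ICAM1, the other leukocyte ligand, fell far less. It was 102 and 101 CPM in the controls, 92.2 and 80.8 with shRNA1, and 83.8 and 88.6 with shRNA2. All knockdown libraries were below the controls, by a margin narrower than the spread among them (−0.23 ± 0.06, 1.17-fold lower, edgeR adjusted p = 0.00229). The value was −0.38 under total counts. With shRNA1 alone (−0.23 ± 0.07) it was −0.12 and not called without shRNA1 replicate 2 (adjusted p = 0.195). With shRNA2 alone its call was lost without shRNA2 replicate 1 (−0.20, adjusted p = 0.0525). On chromosome 19 a pair of antisense genes overlap ICAM1, with 18 and 13 counts over all 6 libraries (the strand setting of the counts is not given, so their reads cannot be told apart). The antisense gene over TNFAIP3 had 31 counts, and a lincRNA on the opposite strand that shares 9 exonic bases with RELA had 272.

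**Figure D3:**
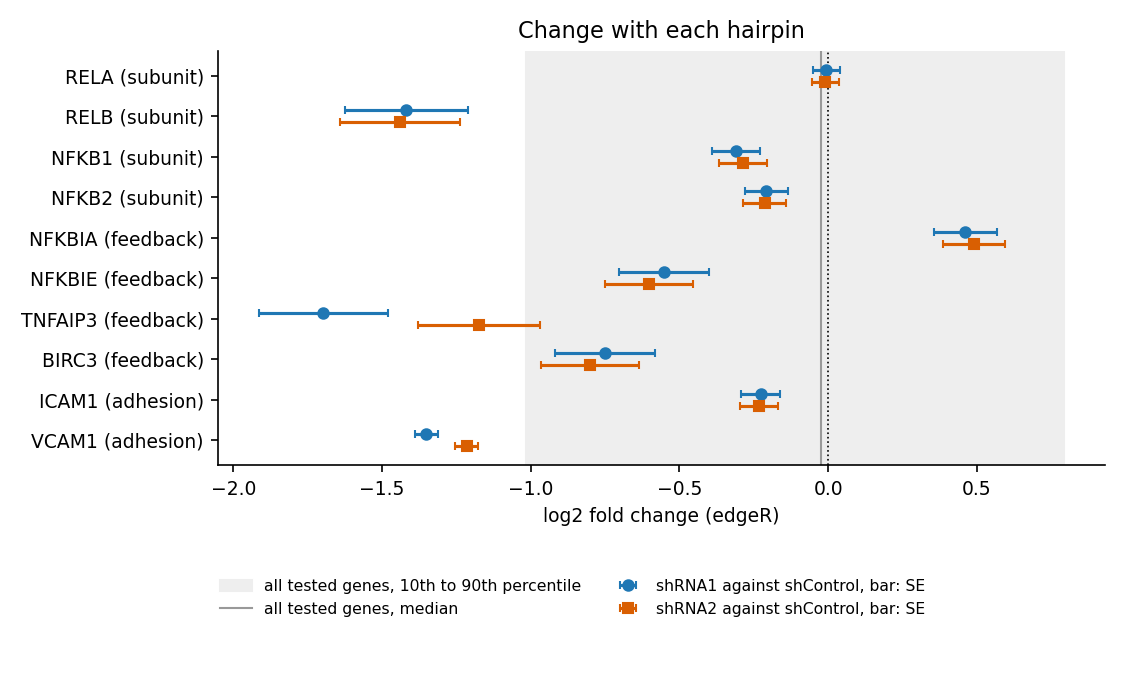
Log2 fold change of each member against shControl with shRNA1 (circles) and shRNA2 (squares), with standard errors from the edgeR fit. The grey band holds all tested genes from the 10th percentile (−1.02) to the 90th (0.79) for the mean of both hairpins. RELB, TNFAIP3 and VCAM1 lie below the band with both hairpins, and the other members lie inside it.

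In counts per kilobase, the lead of VCAM1 over ICAM1 was lost with the hairpins. The order of genes here depends on the annotated exon lengths (6.049 kb for VCAM1, 3.706 kb for ICAM1). In CPM, not divided by length, VCAM1 stayed above ICAM1 with the hairpins (125 to 139 against 80.8 to 92.2). Per kilobase of exon, VCAM1 was the most abundant member in both control libraries (52.6 and 53.5 CPM per kilobase), followed by RELA (29.1 and 30.6) and ICAM1 (27.4 and 27.2). In the 4 knockdown libraries RELA came first in each (28.9 to 30.5), ahead of ICAM1 (21.8 to 24.9) and VCAM1 (20.7 to 23.0), whose ranges overlapped. ICAM1 was above VCAM1 in 3 of these 4 libraries and slightly below it in shRNA2 replicate 1 (22.6 against 23.0). ICAM1 relative to VCAM1, per kilobase, was 0.521 and 0.508 in the controls and 0.983 to 1.20 with the hairpins. Per kilobase NFKBIA also passed NFKB2, at 9.74 and 9.44 against 11.9 and 12.6 CPM per kilobase in the controls. With the hairpins NFKBIA was at 11.75 to 14.6 against 10.3 to 10.9 for NFKB2. In CPM it stayed below NFKB2 with the hairpins (27.9 to 34.6 against 46.2 to 49.0). NFKB1 held the sixth place and NFKBIE the seventh in every library. RELB, TNFAIP3 and BIRC3 filled the last places, where with the hairpins the ranges of TNFAIP3 (0.797 to 1.51) and BIRC3 (0.898 to 0.953) overlapped.

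Set against RELA within each library, 8 members were lower in all 4 knockdown libraries than in both controls, and NFKBIA was higher in all 4. The share of all genes so separated was not computed for these ratios, and by CPM it was 67.0%. RELA was near the same level in every library, so this count repeats the one by CPM and is not a further result. RELB per RELA went from 0.164 and 0.116 to between 0.0478 and 0.0570, and VCAM1 per RELA from 1.81 and 1.75 to between 0.699 and 0.785. ICAM1 per RELA moved from 0.940 and 0.889 to between 0.729 and 0.843. These ratios show that the genes changed unequally. They hold for any scaling of the libraries, and do not show which gene stayed the same.

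**Figure D4:**
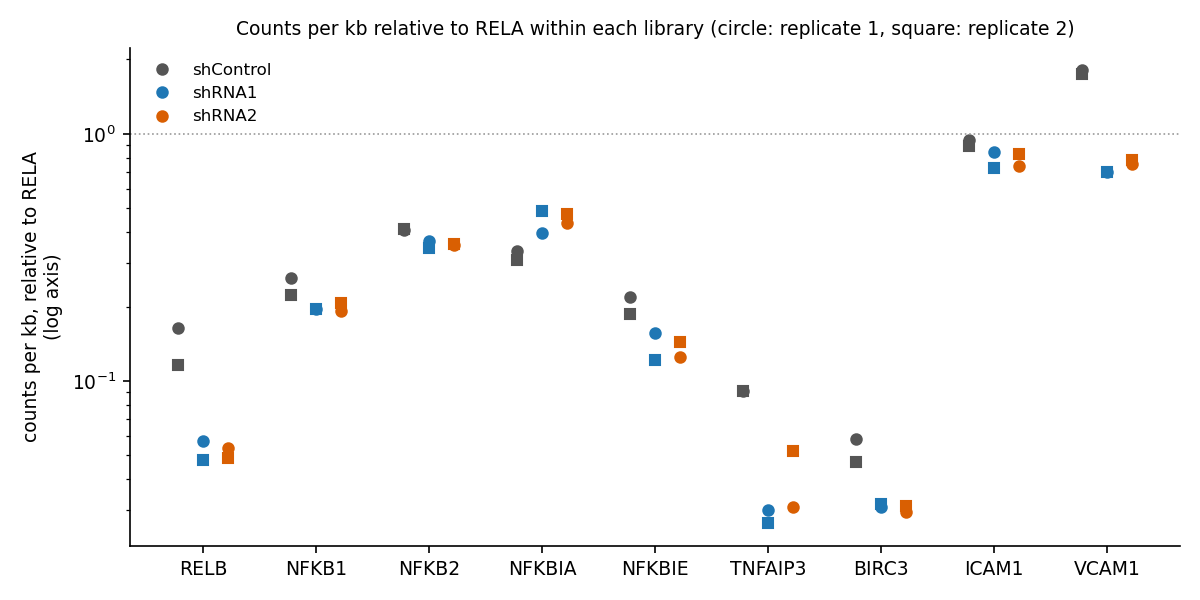
Counts per kilobase of 9 members relative to RELA in the same library, on a log axis, by group and replicate. VCAM1 is above the dotted line at 1 only in the control libraries, NFKBIA is higher in all 4 knockdown libraries, and the other members are lower in all 4.

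The hairpins gave close values for most members. No member in edgeR or DESeq2 was called between shRNA1 and shRNA2. By edgeR 0.0312% of all tested genes (5 of 16039) were called. An unadjusted edgeR p under 0.05 was found for 2 of the 10 members and for 873 of the 16039 tested genes. VCAM1 was lower with shRNA1 than with shRNA2 by a small amount (−0.14 ± 0.04, edgeR adjusted p = 0.905). TNFAIP3 was −0.52 ± 0.22 with shRNA1 against shRNA2 (edgeR adjusted p = 0.916), and that value ran from −0.17 without shRNA2 replicate 2 to −0.84 without shRNA2 replicate 1. The libraries of the 2 hairpins did not overlap for 3 members, VCAM1, TNFAIP3 and BIRC3, and 34.6% of all tested genes were so separated. DESeq2 called 17 genes between the hairpins.

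The rest of the pathway was read from lists of its parts, described by counts for the mean of both hairpins, where 28.9% of all tested genes were called lower and 28.6% higher. Ligands that start the pathway were mostly absent. TNF had 1 or 2 counts in every library, LTA, LTB, CD40LG and TNFSF11 had none, and 3 of 11 ligand genes were expressed enough to test. IL1B, the interleukin-1 beta gene, was low and rose from 0.768 to 2.52 and 2.19 CPM with shRNA1 and shRNA2 (1.58 ± 0.37, edgeR adjusted p = 0.00185). IL18, a related cytokine, fell from 4.82 to 2.66 and 2.61 CPM (−0.88 ± 0.25, edgeR adjusted p = 0.00712), a call lost without shControl replicate 2 (−0.82, adjusted p = 0.0744). TNFSF12, the ligand of TNFRSF12A, was not called (0.15 ± 0.17).

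Receptor genes moved in both directions, with 3 higher, 6 lower and 2 not called among 11 tested (median −0.50). Under total counts 2 were higher and 8 lower, where the median of all tested genes was −0.18. TNFRSF1A, the main TNF receptor, rose from 307 to 409 and 415 CPM (0.42 ± 0.03, edgeR adjusted p = 8.34e-09), and LTBR, the lymphotoxin beta receptor, from 180 to 244 and 253 CPM (0.47 ± 0.03). TNFRSF12A, the receptor of TNFSF12, fell from 305 to 173 and 180 CPM (−0.79 ± 0.05), and IL1RAP, the shared chain of interleukin-1 receptors, from 48.8 to 13.4 and 14.1 CPM (−1.83 ± 0.10, edgeR adjusted p = 2.18e-10). The other TNF receptor gene, TNFRSF1B, had no counts in any library.

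Among 30 kinases, adaptors and ubiquitin enzymes 11 were higher, 14 lower and 5 not called (median −0.14), and under total counts 6 were higher and 16 lower. RBCK1, a subunit of the linear ubiquitin ligase, fell from 462 to 239 and 224 CPM (edgeR adjusted p = 8.34e-13). IRAK1, a kinase below interleukin-1 and Toll-like receptors, rose from 268 to 455 and 475 CPM (0.79 ± 0.03), and its adaptor MYD88 from 14.0 to 29.4 and 29.3 CPM (1.07 ± 0.09). TAB2, which links ubiquitin chains to the kinase TAK, fell by 0.44 ± 0.04 on the log2 scale. The genes of the kinase complex that marks inhibitors for destruction were split. CHUK (−0.80 ± 0.12) and IKBKB (−0.70 ± 0.12), its catalytic subunits, fell, and IKBKG, its scaffold, rose (0.39 ± 0.09, edgeR adjusted p = 0.00154; 0.23 under total counts). CHUK and IKBKB were chosen after their values were seen, and IKBKG has a near-identical pseudogene copy with which it may share reads. BIRC2, the neighbour and close relative of BIRC3, fell from 62.1 to 30.7 and 30.3 CPM (−1.02 ± 0.09, also chosen after its values were seen).

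In the list of 7 other family genes (Rel genes, inhibitor genes and IKBKG) 1 was higher, 3 lower and 3 not called. The higher one was IKBKG, the kinase scaffold given above, which is also counted among the kinases. No Rel or inhibitor gene of this list was called higher. REL, the remaining subunit gene, named here after its values were seen, was 6.66 CPM in the controls and 5.70 with either hairpin (−0.23 ± 0.24, edgeR adjusted p = 0.450). BCL3, a nuclear inhibitor-like coactivator, fell from 86.2 to 67.7 and 65.4 CPM (−0.37 ± 0.06, or −0.25 after the length and GC trend was removed), and NFKBIL1 by 0.68 ± 0.15 on the log2 scale. NFKBIZ, of the same nuclear class, was called slightly lower (−0.15 ± 0.04). That call was lost without shControl replicate 2 (−0.12, adjusted p = 0.056) and after removal of the trend (−0.06, adjusted p = 0.175).

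Of 29 other textbook target genes 24 were tested, and 18 were lower, 2 higher and 4 not called. Their median was −0.54, against −0.03 for all tested genes. Under total counts 21 were lower and 2 higher, and after the length and GC trend was removed 16 were lower and 3 higher. IRF1, an interferon regulatory factor, fell from 106 to 26.8 and 28.3 CPM (−1.95 ± 0.06, edgeR adjusted p = 6.48e-13), and the cytokine gene IL6 from 125 to 43.1 and 43.2 CPM (−1.54 ± 0.05). The chemokine gene CXCL8 fell from 45.9 to 13.4 and 12.7 CPM (−1.81 ± 0.09) and PLAU, urokinase, from 147 to 72.2 and 69.2 CPM (−1.06 ± 0.05). The higher genes in the main fit were CCL2 (2.08 ± 0.60) and CD83 (1.13 ± 0.34). Both were under 3 CPM in every group and are named after their values were seen. IL6 and the chemokines also answer to other factors.

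Other adhesion genes were mostly lower, with 10 lower, 2 higher and 2 not called among 14 tested of 19 (median −0.50). Among all tested genes 28.9% were lower and 28.6% higher. Under total counts 10 of these adhesion genes were lower and 1 higher. ALCAM, a cell adhesion molecule of the immunoglobulin family, fell from 641 to 489 and 468 CPM (−0.42 ± 0.03), CD44, the hyaluronan receptor, from 460 to 349 and 355 CPM (−0.39 ± 0.03), and NCAM1 from 169 to 103 and 107 CPM (−0.69 ± 0.04, edgeR adjusted p = 7.44e-10). CD47, an integrin-associated protein, fell by 0.65 ± 0.06 on the log2 scale. The selectin genes SELE and SELP had no counts. All 10 genes called lower in this list had a larger log2 fall than ICAM1.

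**Figure D5:**
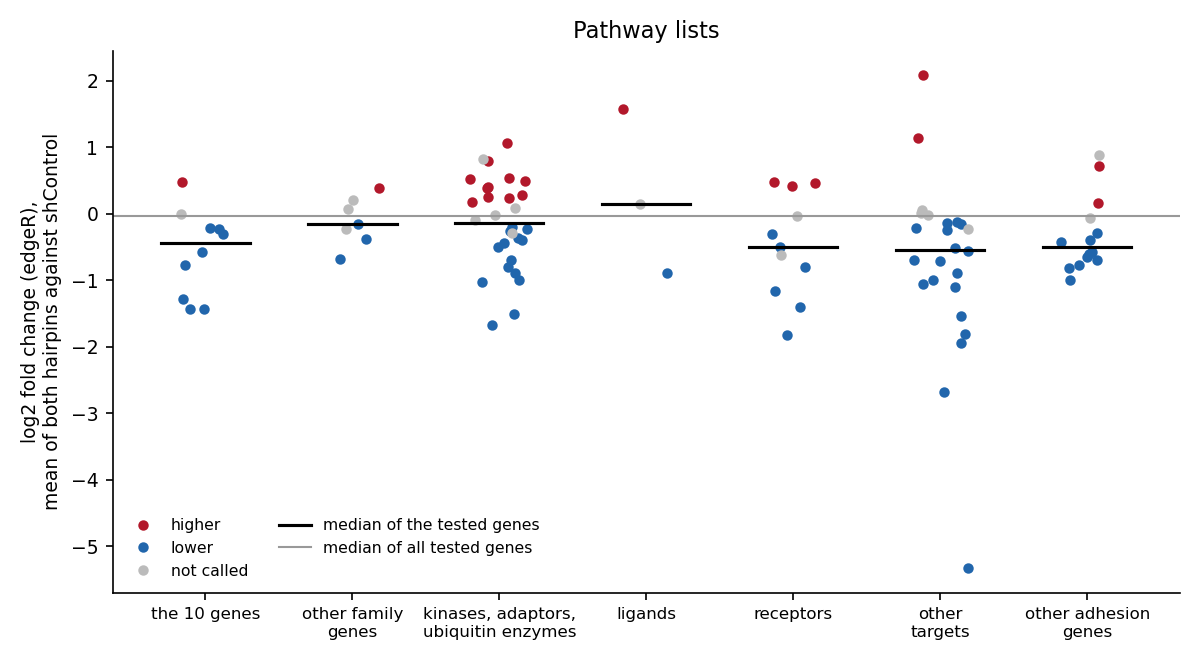
Log2 fold change for the mean of both hairpins of the tested genes in each pathway list, coloured by the edgeR call, with the median of each list (black bar) and of all tested genes (grey line, −0.03). Other targets, receptors, and kinases and adaptors each reach lower values than the 10 members. The kinases and adaptors spread to both sides of the grey line.

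The gene of these lists most like each member over the 6 libraries was found by the root mean square difference of centred log2 CPM, among 77 genes with at least 2 CPM. For VCAM1 it was TLR3 (0.08 log2 units), for ICAM1 TBK1 (0.02), for NFKBIA TLR4 (0.06), for RELB TLR2 (0.15) and for BIRC3 BCAM (0.06). For NFKB1 it was BCL2L1 (0.04), for NFKB2 SOD2 (0.04), for RELA SDC4 (0.05), for NFKBIE TNFRSF13C (0.08) and for TNFAIP3 CXCL2 (0.25), the least close of these. Among the members themselves ICAM1 and NFKB2 were closest (0.06). All these genes share the same 6 libraries and the step between control and knockdown.

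The markers read here did not go against the label of the cells. All 8 renal carcinoma line markers were expressed, with a summed level of 7212 to 7216 CPM in the controls and 9104 to 9240 with the hairpins. Most of that sum was VIM (5146.5 CPM in the controls, 5938 and 5935 with shRNA1 and shRNA2). KRT8 came next (832, then 1524.5 and 1577 CPM), so the sum says little about the other markers. All 8 were called higher, where 28.6% of all tested genes were. Under total counts 6 of the 8 were called higher, and with shRNA1 alone 7. Endothelial markers, of interest because endothelium also makes VCAM1 and ICAM1, summed to 7.30 to 7.56 CPM in the controls and 4.03 to 4.81 with the hairpins. TIE1, most of that sum, fell (−1.11 ± 0.21, edgeR adjusted p = 2.88e-04), and CDH5 had no counts in any library. The other tested endothelial markers, PECAM1 (0.88 ± 0.67) and TEK (0.30 ± 0.54), had positive changes and were not called. Leukocyte markers summed to 42.5 to 45.5 and 39.4 to 45.6 CPM, most of it the lysosomal gene CD68, which was not called, and 5 of 8, PTPRC among them, had no counts. CSF1R, the receptor of a macrophage growth factor, fell from 5.53 to 1.34 and 1.65 CPM (−1.88 ± 0.23, edgeR adjusted p = 4.95e-06). The other tested leukocyte marker, CD14, was scarce, at 0.741 CPM in the controls and 0.213 and 0.847 CPM with shRNA1 and shRNA2. It was not called for the mean (−0.81 ± 0.55). It was lower with shRNA1 (−1.81 ± 0.72, edgeR adjusted p = 0.0478) and not called with shRNA2 (0.19 ± 0.59). Fibroblast and pericyte markers (7 of the 8 listed) summed to 17.05 to 18.4 CPM in the controls and 12.95 to 14.5 with the hairpins. LUM (−0.72 ± 0.17) and PDGFRB (−1.06 ± 0.28) fell, and DCN and DPT had no counts. The other tested markers of this list, COL1A1 (0.36 ± 0.20) and COL3A1 (0.17 ± 0.47), had positive changes and were not called. RGS5 is left out of that sum because its symbol stands for 2 gene IDs in the table. TIE1, PECAM1, TEK, CSF1R, CD14, LUM, PDGFRB, COL1A1 and COL3A1 are named after their values were seen. The part of these other cell types' markers in the members' changes was not tested.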

How the data were processed

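The authors deposited raw read counts, whole numbers for each gene, from 6 libraries of the line 786-O. Per the labels' protocols, total RNA was taken with TRIzol and paired-end libraries were made with an Abclonal kit. Per the submitters' processing notes, FastQC 0.11.9, Trim Galore 0.6.7, HISAT2 2.2.1, StringTie 2.2.1 and the build hg38 were used. For the counting tool, annotation release and strand setting, nothing was given in the sources used here.

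Genes were filtered with filterByExpr (16039 kept), scaled by TMM and fitted with edgeR 4.0.16 (R 4.3.3, robust quasi-likelihood, group means, all 6 libraries), with p-values adjusted over all tested genes. Levels are CPM over scaled library sizes, and per-kilobase levels use GENCODE 29 exon lengths. Log2 CPM for likeness and spread used a prior count of 2. Members and lists were chosen with earlier results of these data known. Named genes are all members, the 4 smallest p of each pathway list and the most alike gene of each member. The alternatives were DESeq2 1.42.0, RLE factors, total counts, no filter, a stricter filter on low counts, a block on replicate number, a fit to only the groups compared, removal of a length and GC trend (mgcv 1.9.3), and leaving out single libraries, in which a group's lone library is taken to spread as the other groups do.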

Additional observations from a re-analysis of the deposited data

How the results depend on the processing

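For the mean of both hairpins, the calls of RELB, NFKB1, NFKBIA, NFKBIE, TNFAIP3, BIRC3, ICAM1 and VCAM1 kept their direction and their side of the threshold in all 13 alternative settings, and NFKB2 lost its call in 1. RELA, not called, took a small positive mean value in 4 of the settings that leave out a library (−0.0494 to 0.0218). Its range over these was −0.0487 to 0.0226 with shRNA1 and −0.0575 to 0.0254 with shRNA2, and it was called lower under total counts. SDC4 (−0.0981) and TNFSF12 (−0.0075) changed sign under total counts, and TNFSF12 also without shControl replicate 2 (−0.0775, the low end of a range to 0.379 over left-out libraries). The count of members called lower with shRNA1 was 5 to 8 over the settings that leave out a library, with the 5 found without shRNA1 replicate 2, where NFKB2, NFKBIE and ICAM1 were lost. Between the hairpins 5 genes were called in the main analysis, 9 with a replicate block, 16 in a fit to only those groups, 17 in DESeq2, 69 with no filter on low counts and 12 to 31 when a library was left out, and no member was among them in any of these. Same-numbered libraries did not deviate together (correlations across genes of 0.007, −0.032 and −0.004), so the numbers were not treated as pairs, and the replicate block changed no member's call, while LINC02068 lost its own (adjusted p = 0.0506). LINC02068 was also not called by DESeq2 (0.107) or after the length and GC trend was removed (0.051). TBK1, named only for likeness, lost its call in DESeq2 (−0.23) and after the length and GC trend was removed (−0.07). It also lost the call without shRNA1 replicate 2, without either shRNA2 library and without either control library (−0.24 to −0.18). SOD2 and TLR4, also named only for likeness, each lost a call in at least 1 setting. Of all genes called, 49.7% rose, against 36% under total counts. With few counts for LINC02068, depth limits that transcript more than any member, the scarcest of which had 67 counts in its lowest library.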

Other observations

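A few pathway genes not described above stood out from their lists and are given as values, chosen after they were seen. IRAK2, a kinase below interleukin-1 receptors, was 15.4 CPM in the controls and 5.76 and 5.15 CPM with shRNA1 and shRNA2 (−1.51 ± 0.14, edgeR adjusted p = 1.74e-07), the opposite direction to IRAK1. CFLAR, a survival target gene, was 98.1 CPM in the controls and 66.0 and 66.9 CPM with the hairpins (−0.56 ± 0.05, edgeR adjusted p = 1.1e-07). ICAM5, a relative of ICAM1, was 12.2 CPM in the controls and 6.29 and 5.96 CPM with the hairpins (−0.99 ± 0.17, edgeR adjusted p = 1.32e-04), while ICAM3 was 5.94 CPM and then 8.99 and 10.6 CPM (0.72 ± 0.21, edgeR adjusted p = 0.0107).

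PTGS2, a cyclooxygenase gene among the targets, had 22 and 28 counts in the controls, 0 and 0 with shRNA1, and 8 and 0 with shRNA2.

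RNF31, the catalytic partner of RBCK1, was uneven between libraries of a group. It was 5.31 and 11.6 CPM in the controls, 14.8 and 33.5 CPM with shRNA1, and 7.03 and 12.5 CPM with shRNA2.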
